A study of Mus musculus with 9 samples.

Results

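TREM and CD300 receptors are small immunoglobulin-fold proteins on the surface of myeloid cells. The group described here holds 10 genes, chosen by name: the TREM receptors Trem1, Trem2, Trem3, Treml2 and Treml4, the signalling adaptor Tyrobp, and the CD300 receptors Cd300a, Cd300lb, Cd300ld and Cd300lf. They were 10 of 22180 genes measured, and each was read by a single probe set. The group and the lists beside it were chosen with earlier results of these data known. The donors were male mice of the C57BL/6J strain, 8 weeks old, and the plantar hindpaw was taken 24 h after it had been incised. No other strain, genotype or treatment was part of the design, and no unwounded paw was included, so every value below describes wounded tissue. Myeloid cells carrying CD11b and lacking Ly6G were sorted by flow cytometry into Ly6C high, Ly6C medium and Ly6C low gates, all on the same day, and 3 Affymetrix arrays were run per gate, 9 in all. The labels do not say whether the 3 replicates of a gate were separate animals or pools, so a p-value here reflects only how far these arrays differ, and that spread may be technical.

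TREM proteins are mostly activating receptors. Most have short tails and signal through Tyrobp, also called DAP12, whose cytoplasmic ITAM motif recruits the kinase Syk. CD300 proteins come as pairs of activating and inhibitory receptors that bind membrane lipids such as phosphatidylserine, which dying cells expose, and the inhibitory ones carry ITIM motifs that recruit phosphatases. In wounds, such receptors are known for tuning how monocytes and macrophages respond to damage and to dead cells.

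The transcript of the sorted protein, Ly6c2, followed the gates, with log2 intensities of 12.08 to 12.48 on the high arrays, 11.20 to 11.27 on the medium arrays and 7.69, 7.90 and 9.40 on the low arrays. The CD11b gene Itgam lay between 10.43 and 11.14 on all 9 arrays, and Ly6g between 2.74 and 4.61. Ly6C low replicate 3 had the highest Ly6c2 of that gate. Its value for Cxcr2, a chemokine receptor of neutrophils, was 7.58 against 5.08 and 5.02. For S100a8, a protein of neutrophils and monocytes, it was 10.37 against 7.25 and 8.57. Replicate 3 was also the highest for both genes in the other gates. Cxcr2 was 6.39 and S100a8 10.07 on medium replicate 3, and they were 5.04 and 8.28 on high replicate 3. Other neutrophil markers were mixed. S100a9, Mmp8 and Mmp9 were also highest on replicate 3 in each gate. Csf3r was highest on replicate 2 in high and on replicate 1 in medium, and Retnlg on replicate 2 in medium. Marker counts below are genes with a limma adjusted p under 0.05 unless stated otherwise. Of all genes, 3.35% passed as higher and 2.32% as lower in low than in high. Of the classical monocyte markers, 8 of 9 passed as lower in low than in high. As higher, 11 of 13 tissue macrophage and 7 of 11 dendritic cell markers passed. The log2 of the summed intensity of the monocyte markers ranged from 14.03 to 14.13 on the high arrays, from 13.47 to 13.65 on the medium arrays and from 12.11 to 12.78 on the low arrays. For fibroblast markers it was 11.65 to 12.84, 9.63 to 9.67 and 8.70 to 8.85, with 9 of 10 genes lower in low than in high. For tissue macrophage markers it was 12.25 to 12.83, 12.92 to 13.39 and 14.02 to 14.33. For neutrophil markers it was 9.60 to 10.37, 10.03 to 11.22 and 9.44 to 11.49, with 1 gene higher and 2 lower of 14 in low. Of the other marker lists, 3 of 7 eosinophil, 1 of 9 mast cell and basophil, 1 of 8 natural killer and 1 of 7 keratinocyte genes were higher in low than in high, 2 of 10 endothelial genes were lower, and 0 of 8 B and T cell genes passed in limma, with 1 at an unadjusted p under 0.05. The gates are bulk samples, in which fewer cells of a type and less RNA per cell cannot be told apart.

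Of the 10 genes, 7 had an entry in a RefSeq table of promoter windows (GRCm38.p6). The 250 bases before the annotated start are printed for the 3 receptors with the largest negative differences among those with a window, and for Trem2, which lies in the same gene cluster as Trem1 and Treml4 and had a positive difference. Capitals mark matches to GAGGAA (or TTCCTC on the other strand), a core that ETS factors such as PU.1, a regulator of myeloid genes, can bind, to the STAT motif TTCNNNGAA and to the AP-1 motif TGANTCA.
Trem1, chr17:48232489-48232738, plus strand: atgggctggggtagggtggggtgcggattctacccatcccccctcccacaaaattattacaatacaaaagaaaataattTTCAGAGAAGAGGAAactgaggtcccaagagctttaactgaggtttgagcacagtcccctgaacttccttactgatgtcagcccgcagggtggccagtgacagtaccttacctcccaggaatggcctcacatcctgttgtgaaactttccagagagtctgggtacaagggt
Treml4, chr17:48264045-48264294, plus strand: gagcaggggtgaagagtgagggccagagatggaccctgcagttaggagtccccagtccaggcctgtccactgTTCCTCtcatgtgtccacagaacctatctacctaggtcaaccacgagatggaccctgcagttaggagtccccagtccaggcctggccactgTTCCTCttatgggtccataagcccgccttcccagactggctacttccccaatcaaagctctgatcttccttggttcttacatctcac
Cd300lf, chr11:115133993-115134242, minus strand: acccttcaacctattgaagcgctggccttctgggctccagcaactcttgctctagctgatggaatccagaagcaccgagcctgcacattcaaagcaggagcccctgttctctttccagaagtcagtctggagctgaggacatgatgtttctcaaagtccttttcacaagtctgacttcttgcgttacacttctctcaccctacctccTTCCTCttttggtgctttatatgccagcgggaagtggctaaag
Trem2, chr17:48346151-48346400, plus strand: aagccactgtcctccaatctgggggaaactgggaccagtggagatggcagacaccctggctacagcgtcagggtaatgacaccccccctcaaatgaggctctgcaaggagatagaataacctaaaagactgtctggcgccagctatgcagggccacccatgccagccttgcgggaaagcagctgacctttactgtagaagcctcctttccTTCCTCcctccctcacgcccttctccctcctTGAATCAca

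The 5 motifs listed here were searched on both strands: GAGGAA, TTGCNNAA for C/EBP, TGANTCA, GGGANTTCC for NF-kB and TTCNNNGAA. GAGGAA occurred in 6 of the 7 windows and in 23.3% of the 32851 windows of the whole table. The Trem1 window held it on the plus strand 162 to 157 bases before the start, directly after a STAT match at 171 to 163 bases, with no shared base. Treml4 held it on the minus strand at 178 to 173 and at 87 to 82 bases, Cd300lf at 43 to 38 bases and Trem2 at 40 to 35 bases. The AP-1 motif, in 6.75% of all windows, was found in the Trem2 window, 9 to 3 bases before the start. The STAT motif was in 7.02% of all windows and here in Trem1 alone of the 7, the C/EBP motif was in 9.56% and here in Cd300a alone, and the NF-kB motif was in 1.43% and in 0 of the 7. These matches are letters in a window, and binding was not measured. GAGGAA was in all 4 printed windows, that of Trem2 included.

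The first comparison set the Ly6C low gate against the Ly6C high gate. Trem1 and Treml4 were lower in Ly6C low, by 3-fold and 3.42-fold. No gene of the group was higher. Cd300lf was 2.75-fold lower at an adjusted p just above the threshold of 0.05. Trem2, the adaptor Tyrobp and the other CD300 receptors did not pass the test. Of all genes, 5.67% passed it, 3.35% being higher and 2.32% lower in low, against 2 of these 10 genes, both lower. An unadjusted p under 0.05 was reached by 5 of the 10, beside 17.9% of all genes. The values of the 2 gates did not overlap for 4 of the 10 genes (Trem1, Treml4, Tyrobp and Cd300lf), beside 20.1% of all genes. The median log2 difference was -0.49 over the 10 genes and 0.01 over all genes, and the difference was negative for 8 of the 10.

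**Figure D1:**
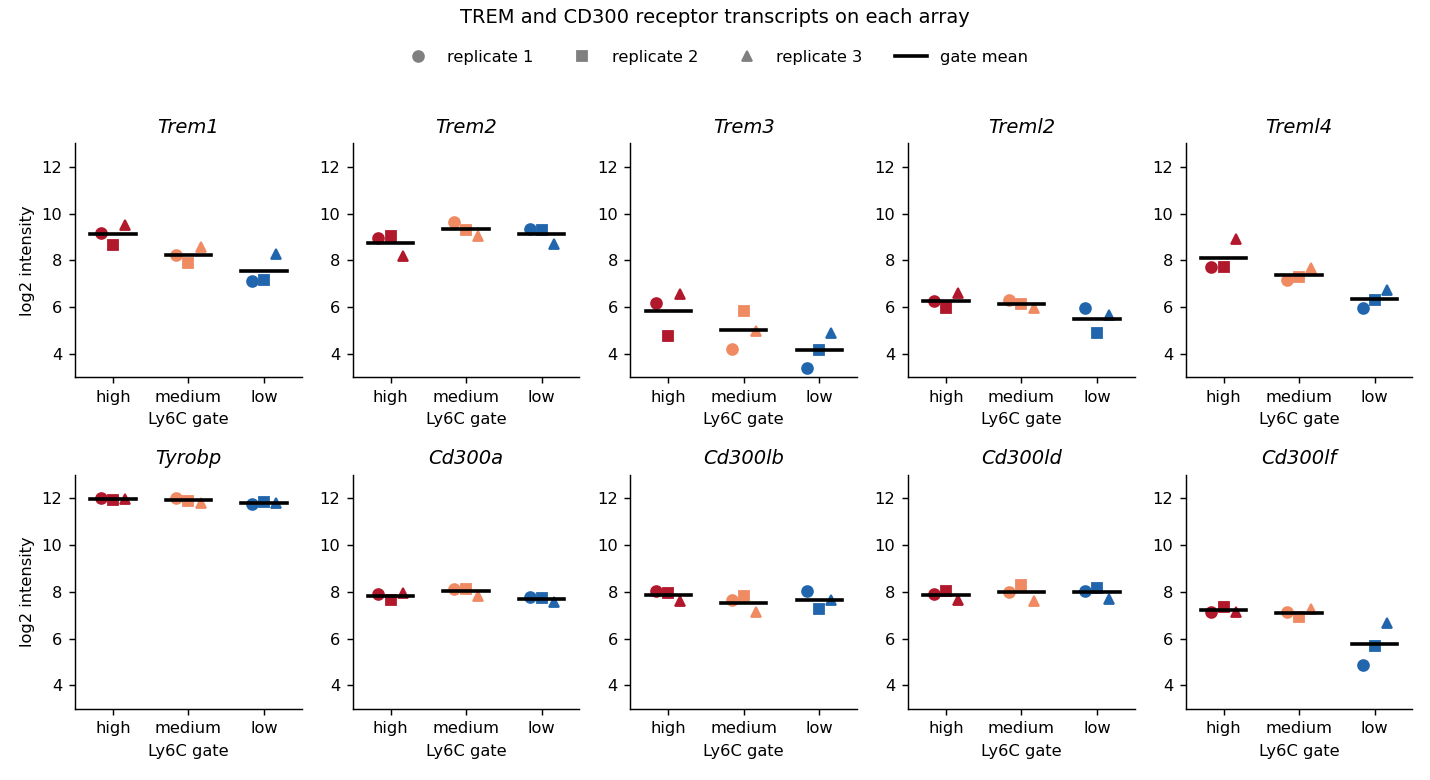
Log2 intensity of each of the 10 genes (vertical axis, one panel per gene on a shared range) on each array by gate (horizontal axis), where points are arrays and the horizontal lines are means of 3 arrays. Trem1 and Treml4 step down from Ly6C high to Ly6C low, Cd300lf is lower in Ly6C low than in both other gates, and Tyrobp stays between 11.74 and 12.03.

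Trem1 is the receptor that amplifies the inflammatory response of monocytes and neutrophils. Its log2 intensities were 9.19, 8.64 and 9.51 in high, 8.24, 7.88 and 8.57 in medium, and 7.13, 7.17 and 8.29 in low. Every low array lay below every high array. Replicate 3 was the highest array of each gate for Trem1, as it was for Cxcr2 and for the cytokine genes Il6 and Tnf. In low it was also the highest for Ly6c2. The neutrophil marker Csf3r was not highest on replicate 3 in high or medium. The difference between low and high was -1.58 (SE 0.34, 95% interval -2.35 to -0.81, limma adjusted p = 0.0298). The call was lost without high replicate 1 (adjusted p = 0.0807), high replicate 3 (0.1), low replicate 1 (0.11), low replicate 2 (0.108) or medium replicate 1 (0.0565), and without low replicate 3 the difference was -1.96 (0.00715). In a fit of only the 2 gates the adjusted p was 0.0836.

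Treml4, a receptor that binds dying cells and takes part in responses through Toll-like receptor 7, had the largest difference of the group. It measured 7.71, 7.70 and 8.89 in high, 7.15, 7.30 and 7.69 in medium, and 5.95, 6.32 and 6.72 in low. All 3 gates were separate, with every medium array below the high arrays and above the low arrays. Low minus high was -1.77 (SE 0.33, 95% interval -2.52 to -1.03, limma adjusted p = 0.0162). The adjusted p was 0.0666 without low replicate 1, 0.06 without low replicate 2 and 0.0626 in a fit of only the 2 gates. Treml4 was also the only gene of the group past the moderated F test over the 3 gates (adjusted p = 0.0421), which 4.0% of all genes passed. The genes whose centred values were closest to those of Treml4 over the 9 arrays were AI504432, Mefv and Trim13, at root mean square distances of 0.23, 0.26 and 0.27 on the log2 scale. Mefv, which encodes the inflammasome protein pyrin, had means of 9.59, 9.13 and 7.79 in high, medium and low. The means were 9.40, 8.87 and 8.02 for AI504432 and 7.58, 7.13 and 5.85 for Trim13.

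The fall of Trem1 and Treml4 went with that of the monocyte and fibroblast markers given above, and the part of either in it was not tested. Neutrophils also express Trem1, and the summed neutrophil markers given above had overlapping ranges in the 3 gates. Of the 14 single markers, Mmp8 (-2.78) and Csf3r (-1.13) passed as lower in low than in high, and Retnlg (3.91) as higher. The call of Csf3r was lost without any of 5 single arrays (limma adjusted p up to 0.0977) and in a fit of only the 2 gates (0.0953). The high values of Retnlg (2.90, 2.45 and 3.59) lay below the array medians of 3.93 to 4.10. The size of its difference is therefore uncertain. The part of neutrophils in the values of Trem1 was not tested.

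Trem3, an activating receptor of the mouse, was measured at 6.16, 4.75 and 6.56 in high, 4.21, 5.83 and 5.0 in medium, and 3.39, 4.16 and 4.90 in low. Its arrays spread by SDs of 0.95, 0.81 and 0.76, and the low and high ranges overlapped. The difference of -1.67 was as large as that of Trem1, but its SE was 0.57 and it did not pass (limma adjusted p = 0.144). The low values lay on both sides of the array medians of 3.93 to 4.10, so the size of the difference is uncertain. Trem3 was also the one gene of the group that failed the filter on dim genes used as an alternative, which asked for a value of 6 or more on 3 or more arrays. Treml2, a receptor of myeloid cells and lymphocytes, measured 6.26, 5.98 and 6.60 in high, 6.29, 6.12 and 5.98 in medium, and 5.98, 4.88 and 5.65 in low. The low minus high difference of -0.78 (SE 0.27) did not pass (adjusted p = 0.148), and 1 low array equalled the lowest high array to 2 decimals.

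Trem2, a lipid receptor of macrophages that supports phagocytosis and lipid handling, had its lowest mean in Ly6C high. Its values were 8.97, 9.03 and 8.20 in high, 9.62, 9.29 and 9.04 in medium, and 9.34, 9.30 and 8.69 in low. The highest single value was in medium, and the low arrays overlapped both the high and the medium arrays. Low minus high was 0.38 (SE 0.26, 95% interval -0.22 to 0.97, limma adjusted p = 0.552), so the interval holds 0 as well as a rise of nearly 1 on the log2 scale.

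**Figure D2:**
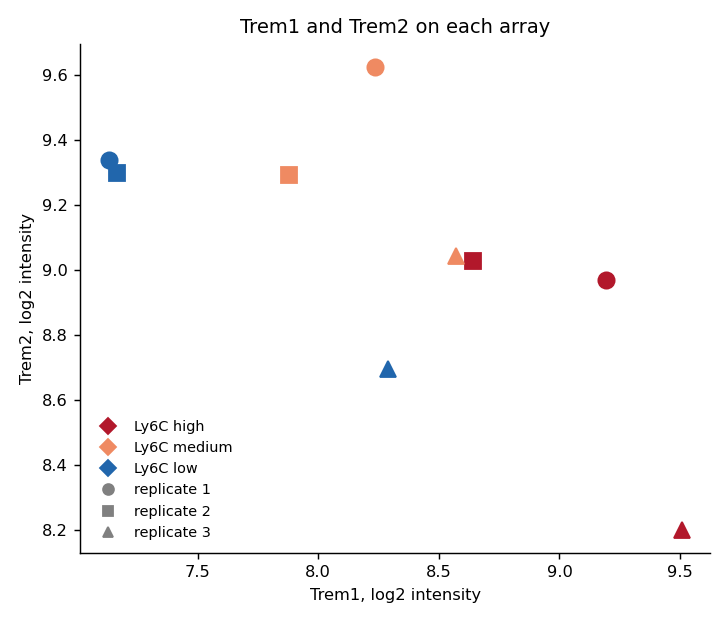
Log2 intensity of Trem1 (horizontal axis) and of Trem2 (vertical axis) on each of the 9 arrays, with colour for the gate and shape for the replicate number. The Ly6C high arrays lie to the right, at 8.64 or more of Trem1, and the triangles of replicate 3 lie to the lower right within each gate.

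The plot of both receptors by array shows a second pattern, which was chosen after the values were seen and is given without a test. In each gate, replicate 3 had the highest Trem1 and Treml4 and the lowest Trem2 and Cd300ld. Of all genes, 4.64% were highest and 4.92% lowest on replicate 3 in every gate. The within-array difference Trem1 minus Trem2, whose zero has no meaning because the probe sets differ, was 0.22, -0.39 and 1.30 in high, -1.39, -1.42 and -0.47 in medium, and -2.21, -2.13 and -0.40 in low. Replicate 3 was the highest of its gate each time, and the high arrays lay above the medium and low arrays.

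Tyrobp, the adaptor through which Trem1, Trem2, Trem3, Treml4 and several CD300 receptors signal, had mean log2 intensities of 11.97, 11.91 and 11.80 in high, medium and low. It measured 12.02, 11.92 and 11.97 in high, 12.03, 11.90 and 11.79 in medium, and 11.74, 11.84 and 11.81 in low. The low arrays all lay below the high arrays, and low minus high was -0.18 (SE 0.10, 95% interval -0.39 to 0.04, limma adjusted p = 0.417). These values are near the top of the scale, whose highest value on any array was 13.41, and array signal can be compressed there, so a difference in RNA may be larger than the one measured. Among other signalling adaptors, Fcer1g, the gamma chain of Fc receptors, had means of 12.05, 12.02 and 12.01 in high, medium and low. Hcst, also called DAP10, had means of 8.92, 8.96 and 8.78. Neither of the 2 measured passed the test in any comparison.

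Cd300lf, an inhibitory receptor for phosphatidylserine and ceramide, had the largest difference in size of the 4 CD300 receptors in the group. It measured 7.13, 7.33 and 7.16 in high, 7.16, 6.94 and 7.26 in medium, and 4.88, 5.70 and 6.67 in low. High and medium overlapped in a narrow range, and all 3 low arrays lay below them but spread widely (SD 0.90), with low replicate 3 the highest. Low minus high was -1.46 (SE 0.36, 95% interval -2.28 to -0.64), which did not pass at a limma adjusted p of 0.0511. It passed in 6 of 8 alternative settings, among which the adjusted p ranged from 0.0182 to 0.142. Of the 9 fits that left out 1 array, it passed in 1, without low replicate 3, where the difference was -1.92 (0.00441). In the other 8 it did not pass, with an adjusted p of up to 0.142 without low replicate 2. Low minus medium was -1.37 (adjusted p = 0.108), and it passed only without low replicate 3 (0.0095) and with the filter on dim genes (0.041).

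The other CD300 receptors of the group did not pass in any comparison. Cd300a, an inhibitory receptor for phospholipids of dying cells, measured 7.89, 7.67 and 7.94 in high, 8.12, 8.14 and 7.84 in medium, and 7.79, 7.72 and 7.57 in low. Its low arrays lay below its medium arrays, with a difference of -0.34 (adjusted p = 0.246). Cd300lb, an activating receptor that pairs with Tyrobp, measured 8.03, 7.95 and 7.61 in high, 7.65, 7.82 and 7.13 in medium, and 8.03, 7.28 and 7.64 in low. Cd300ld, an activating receptor that signals through Fcer1g, measured 7.91, 8.03 and 7.63 in high, 8.01, 8.31 and 7.62 in medium, and 8.04, 8.18 and 7.70 in low. The gates of both overlapped in every comparison, and low minus high was -0.21 (95% interval -0.73 to 0.32) for Cd300lb and 0.12 (-0.33 to 0.56) for Cd300ld. CD300 genes are close copies of each other, so a probe set can take signal from a relative. Cd300lf was named on 2 further probe sets together with Cd300ld3, Cd300ld4 and Cd300ld5, and these were left out.

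**Figure D3:**
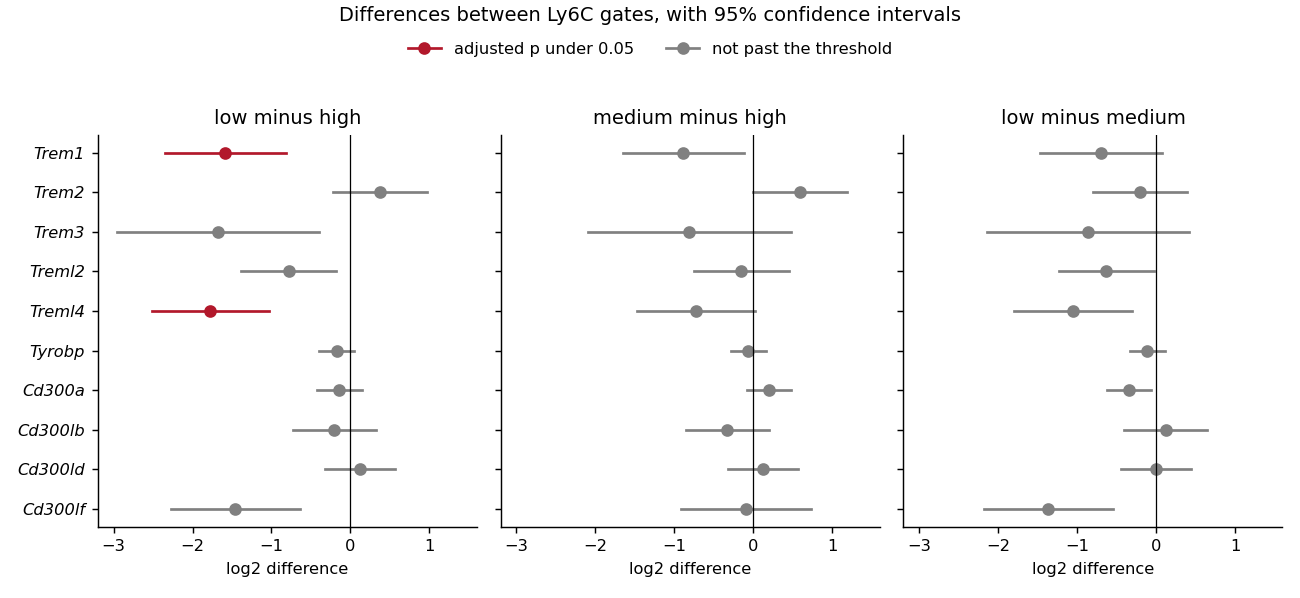
Log2 difference between 2 gates (horizontal axis) for each of the 10 genes (vertical axis) in the 3 comparisons, where points are estimates over 3 arrays per gate and bars are 95% confidence intervals. Red marks an adjusted p under 0.05, reached by Trem1 and Treml4 in low minus high, and the bars of Tyrobp are the shortest.

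Ly6C medium was then set against Ly6C high. None of the 10 genes passed the test (limma, adjusted p under 0.05), and 1 of the 10, Trem1, had an unadjusted p under 0.05, beside 7.53% of all genes. Of all genes, 0.239% passed, 0.0406% higher and 0.198% lower in medium. The gates did not overlap for Trem1, Trem2 and Treml4, which is 3 of 10 beside 10.7% of all genes. Medium minus high was -0.88 for Trem1 (95% interval -1.66 to -0.11, adjusted p = 0.574), -0.72 for Treml4 (-1.47 to 0.02, 0.667) and 0.59 for Trem2 (-0.01 to 1.18, 0.665). Trem2 was thus the one of these 3 with medium arrays above high arrays. The remaining differences lay between -0.81 for Trem3 and 0.20 for Cd300a.

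Between Ly6C low and Ly6C medium, 0 of the 10 genes passed in limma and 4 had an unadjusted p under 0.05, beside 14.1% of all genes. The share of all genes past the test was 1.93%, with 1.38% higher and 0.541% lower in low. The gates did not overlap for Treml4, Cd300a and Cd300lf, 3 of 10 beside 16.8% of all genes. Treml4 differed by -1.05 (95% interval -1.80 to -0.31, adjusted p = 0.172) and Trem1 by -0.70 (-1.47 to 0.07, 0.414). The difference was negative for 9 of the 10 genes, with a median of -0.48 beside -0.02 over all genes. The low arrays serve in this comparison and in low versus high, so the 2 are not independent.

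The TREM genes form 1 cluster on chromosome 17 and the CD300 genes 1 on chromosome 11, in the gene order of RefSeq. The TREM stretch from 9830107B12Rik to Nfya holds 10 coding genes, all measured. Trem1, Trem3, Treml4 and Treml2 follow each other, with low minus high differences of -1.58, -1.67, -1.77 and -0.78, of which Trem1 and Treml4 passed. Of the genes around them, picked out after the values were seen, A530064D06Rik before Trem1 fell by 1.06 (adjusted p = 0.0273) and B430306N03Rik after Treml2 differed by -1.23 (0.0776). The call of A530064D06Rik was lost without high replicate 2 (0.0933), high replicate 3 (0.0933), low replicate 1 (0.0628) or medium replicate 1 (0.0517). The stretch was flanked by Trem2 at 0.38, Treml1, a receptor of platelets, at 0.05 (0.93) and Nfya at -0.15 (0.484) on one side, and by 9830107B12Rik at 0.05 (0.953) on the other.

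**Figure D4:**
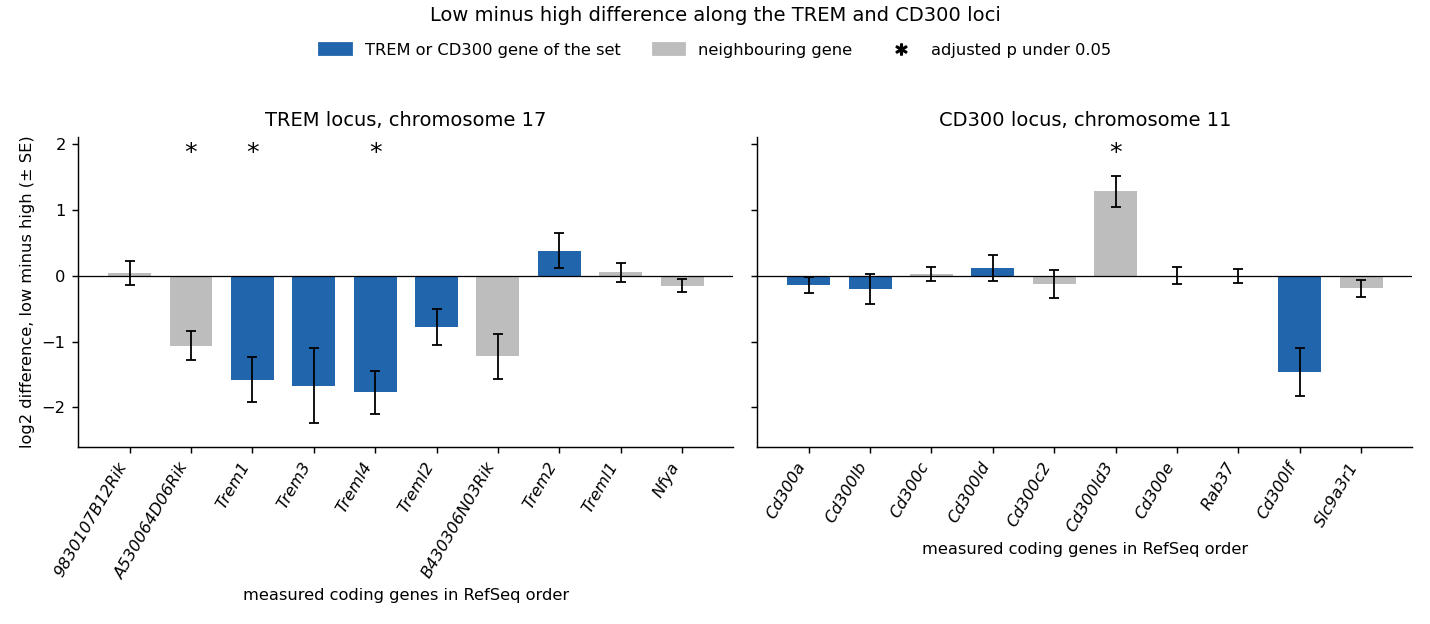
Low minus high log2 difference (vertical axis) of the coding genes of the TREM cluster and of the CD300 cluster in their RefSeq order (horizontal axis, not to scale in distance), with bars for the standard error. Genes from A530064D06Rik to B430306N03Rik lie below 0 in the TREM cluster, while in the CD300 cluster Cd300ld3 lies at 1.28 and Cd300lf at -1.46.

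In the CD300 stretch, 10 of 13 coding genes were measured. Cd300ld3, a close relative of Cd300ld, rose 2.42-fold in low: it measured 8.72, 8.47 and 8.01 in high, 9.01, 8.40 and 8.88 in medium, and 9.97, 9.31 and 9.74 in low. Every low array lay above every high and medium array. Low minus high was 1.28 (SE 0.24, limma adjusted p = 0.0166), and the call was lost without high replicate 3 (0.0509) or low replicate 1 (0.0666). Cd300ld3 and Cd300lf thus lie in one cluster with differences of opposite sign, and in every low array Cd300lf minus Cd300ld3 was lower (-5.09, -3.61 and -3.07) than in any high array (-1.58, -1.14 and -0.85). This pair was chosen after its values were seen. Cd300ld3 was higher where the tissue macrophage and dendritic cell markers were higher, and their part in the result was not tested. Cd300c2 had means of 9.07, 9.49 and 8.94 in high, medium and low, Cd300c of 4.92, 4.94 and 4.94, and Cd300e of 4.56, 4.55 and 4.56.

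Over the wider TREM and CD300 family outside the 10 genes, 8 of 14 listed genes were measured, 1 was higher in low than in high (Cd300ld3) and 0 were lower. Beside this list and those below, 3.35% of all genes passed as higher and 2.32% as lower in low than in high. In each of the other comparisons 0 passed in limma, with 1 at an unadjusted p under 0.05 for medium against high and 2 for low against medium. Besides those already given, Cd300lg, an endothelial member, had means of 5.75, 5.17 and 5.66, the antibody transporter Pigr 3.13, 3.50 and 3.25, and the antibody receptor Fcamr 3.59, 3.70 and 3.63.

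Other receptors that pair with DAP12 differed among themselves: of 12 measured, 1 was higher and 2 were lower in low than in high. Sirpb1c, an activating signal-regulatory protein, measured 6.51, 6.98 and 6.56 in high, 5.56, 5.84 and 6.02 in medium, and 4.07, 4.47 and 4.24 in low. It fell by 2.43 (adjusted p = 0.000322), and the 3 gates were separate. The low values lay near the array medians of 3.93 to 4.10, so the size of the difference is uncertain. Its relative Sirpb1a fell by 1.54 (0.00226), from a mean of 9.64 to 8.10. Signal-regulatory proteins are close copies, so their probe sets can share signal. Klrk1, the receptor NKG2D of natural killer cells and some macrophages, rose by 0.94 (0.00912), from 5.91 to 6.85. The summed natural killer markers were 6.89 to 7.08 in high and 8.21 to 9.02 in low on the log2 scale, with 1 of 8 genes higher, and their part in the value of Klrk1 was not tested. The same 3 genes passed between low and medium, where Sirpb1c differed by -1.55 (0.00497), Sirpb1a by -1.11 (0.0227) and Klrk1 by 0.88 (0.0264). There the call of Sirpb1a was lost without low replicate 1 (0.0903), low replicate 2 (0.0569), medium replicate 1 (0.0555) or medium replicate 2 (0.0674), and that of Klrk1 without any single low or medium array (0.0559 to 0.0942).

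Downstream of the adaptors, 0 of 25 measured genes of ITAM signalling were higher and 1 was lower in low than in high, a share near that of all genes given above. The median was -0.18, and 8 of the 25 had an unadjusted p under 0.05, beside 17.9% of all genes. The gene that passed was Fgr, a Src-family kinase of myeloid cells, which measured 8.04, 7.89 and 8.06 in high and 7.51, 7.14 and 7.05 in low. It fell by 0.76 (adjusted p = 0.0137, or 0.0557 without low replicate 2). Syk, the kinase that the phosphorylated ITAM recruits, had means of 9.19, 9.27 and 8.88 in high, medium and low (low against high, 0.394). Of 8 genes of ITIM signalling, 0 passed in limma and 1 had an unadjusted p under 0.05. The phosphatase gene Ptpn6, which encodes SHP-1, had means of 8.50, 8.11 and 8.42, and Inpp5d, which encodes the lipid phosphatase SHIP1, had means of 8.99, 8.54 and 8.76.

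Among genes for reported partners of TREM1, 1 of 5 was higher in low than in high and 0 were lower. Hspa1a, an inducible heat-shock protein, measured 10.14, 9.91 and 9.19 in high and 11.14, 11.09 and 10.79 in low, and rose by 1.26 (adjusted p = 0.0177). That call was lost without low replicate 1 (0.0725) or low replicate 2 (0.068). Pglyrp1, a peptidoglycan-binding protein and ligand of TREM1, had means of 7.11, 6.66 and 6.81 and did not pass (0.803). Of 16 cytokine, chemokine and activation genes that TREM1 signalling is known to raise, 0 passed in limma between low and high. An unadjusted p under 0.05 was reached by 7, beside 17.9% of all genes, and the median difference was -0.38.

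Of 18 genes for ligands, shedding and partners of TREM2, 0 were higher and 3 were lower in low than in high, with a median of -0.23. Ms4a4c and Ms4a4a belong to a family of membrane proteins, one of which is known to affect the release of soluble TREM2. Ms4a4c measured 9.47, 9.63 and 9.41 in high, 9.18, 9.21 and 9.02 in medium, and 7.27, 7.46 and 7.70 in low. It fell by 2.03 against high (adjusted p = 0.000188) and by 1.66 against medium (0.00172). Ms4a4a fell by 1.27 (0.0161), a call lost without high replicate 2 (0.0512), low replicate 1 (0.0666) or low replicate 2 (0.0624). Psen2, a catalytic subunit of gamma-secretase, fell by 0.55 (0.0201), a call lost without high replicate 1 (0.0571), high replicate 2 (0.0598), low replicate 1 (0.0658) or low replicate 3 (0.0515). The lipoprotein gene Apoe, a ligand of TREM2, had means of 7.20, 7.23 and 6.92 and did not pass (0.191).

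Genes known to be raised together with TREM2 in lipid-handling macrophages were split. Of 26 measured, 6 were higher and 1 was lower in low than in high, and the median over the list was 0.08. The 4 named by the size of their measured difference were Atp6v0d2, a subunit of the lysosomal proton pump, Igf1, a growth factor of repair macrophages, Itgax, the integrin CD11c, and Mmp12, the macrophage elastase. Atp6v0d2 measured 3.43, 3.07 and 3.17 in high, 5.15, 6.17 and 5.11 in medium, and 5.54, 5.51 and 5.30 in low. The high values lay below the array medians of 3.93 to 4.10, and the values come with no detection call, so the size of a difference from them is uncertain and may be understated. The medium and low values overlapped and all lay above the high values, by 2.26 for medium (adjusted p = 0.0176) and by 2.23 for low (0.0021). The call in medium was lost without high replicate 2 (0.0793) or medium replicate 1 (0.0968).

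Igf1 rose by 2.03 in low (0.0209), Itgax by 2.02 (0.000387) and Mmp12 by 1.36 (0.032). The call of Igf1 was lost without high replicate 3 (0.0695), low replicate 1 (0.0827) or low replicate 2 (0.0773). That of Mmp12 was lost without high replicate 1 (0.0912), high replicate 2 (0.104), low replicate 1 (0.0939), low replicate 2 (0.115) or medium replicate 3 (0.0545). Itgax is also in the list of dendritic cell markers, whose summed level ran from 8.67 to 9.12 on the high arrays, from 9.08 to 9.33 on the medium arrays and from 11.37 to 11.70 on the low arrays. The part of those cells in its value was not tested. The 1 lower gene, named after its value was seen, was Plin2, a coat protein of lipid droplets, at -0.46 (0.0303), a call lost without any single high or low array (0.0538 to 0.0992). Trem2 itself, with its highest mean in medium and with medium and low overlapping, did not pass in any of the 3 comparisons.

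Of 16 measured genes in a list of other paired inhibitory receptors, 1 was higher and 1 was lower in low than in high. Inhibition by the listed genes, Cd33 included, was not measured. Cd33, a receptor for sialic acid, measured 7.06, 6.52 and 7.87 in high, 6.72, 7.52 and 7.01 in medium, and 8.75, 9.05 and 8.28 in low, and rose by 1.54 (adjusted p = 0.0351). Its call was lost without any of high replicates 1 and 2, low replicates 1 and 2, or medium replicates 1 and 3, with adjusted p-values of 0.0941, 0.0968, 0.113, 0.124, 0.0537 and 0.0586. Clec12a, an inhibitory lectin, measured 9.74, 9.44 and 9.36 in high and 8.91, 8.36 and 8.37 in low, and fell by 0.97 (0.0117, or 0.0531 in a fit of only the 2 gates).

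In the comparisons with Ly6C medium these lists held few calls, and those not yet given are named here after their values were seen. Between medium and high, the list of genes raised with TREM2 had 2 higher genes, Atp6v0d2 and Cd36, and the other lists had 0 in limma. Cd36, a scavenger receptor for lipids, measured 9.89, 10.47 and 10.25 in high, 11.17, 11.20 and 11.17 in medium, and 11.37, 11.59 and 11.37 in low. It was higher in medium than in high by 0.98 (adjusted p = 0.0404), a call lost without any 1 of the 9 arrays (0.0616 to 0.18). Low exceeded high by 1.24 (0.0021). Between low and medium, Itgax rose by 1.68 (0.00363) and Plin2 fell by 0.59 (0.0228) in that list, a call of Plin2 lost without any of low replicates 1 and 2 or the 3 medium arrays (0.0519 to 0.0919). Among the inhibitory receptors, Siglece, another receptor for sialic acid, measured 5.16, 5.68 and 6.03 in medium and 7.51, 7.23 and 6.90 in low and rose by 1.59 (0.0225), a call lost without low replicate 1 (0.0879), low replicate 2 (0.0857), medium replicate 1 (0.0691) or medium replicate 2 (0.0645). The lists of ITAM signalling, ITIM signalling, TREM1 partners and genes raised by TREM1 had 0 calls in both comparisons with medium, with 1 to 6 genes per list at an unadjusted p under 0.05 except ITIM signalling between low and medium, which had 0.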

How the data were processed

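The authors deposited log2 intensities, 1 column per array, and RMA is the tool named in the submitters' processing notes, with no version or settings. Array, build and annotation versions are not given in the sources used here. Per the labels, RNA was amplified before hybridization. Array medians lay between 3.93 and 4.10. Precision is limited by the array number.

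Of 41345 probe sets, 23521 with exactly 1 gene symbol were kept, and the probe set with the highest mean over 9 arrays stood for a gene. All 22180 genes were fitted in R 4.3.3 with limma 3.58.1 (lmFit, eBayes, all 9 arrays, 6 residual degrees of freedom, Benjamini-Hochberg, threshold 0.05), after the procedure was tested on simulated data. The genes described, the lists and the markers were chosen with earlier results of these data known. The naming rule covered the 10 genes, up to 4 genes per list with the largest differences past the threshold in low versus high, a fixed set given whatever its test, and the 3 genes nearest to each gene past the F test. Alternatives were repeated quantile normalization, centring, mean of probe sets, a filter on dim genes, a trended and robust prior, array weights, a replicate block, only the 2 gates compared, and leaving out each array.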

Additional observations from a re-analysis of the deposited data

How the results depend on the processing

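Repeated normalization, centring, probe set averaging, the filter on dim genes, a trended and robust prior and array weights left the count of the 10 genes called in low versus high at 2 or 3, where Cd300lf was the addition. A fit of only the 2 gates compared called 0 of the 10 and 644 of all genes in low versus high, 211 in low versus medium and 1 in medium versus high. Other low versus high calls lost in that limma fit included A530064D06Rik (adjusted p = 0.0949), Hspa1a (0.0584), Psen2 (0.0617), Mmp12 (0.0727), Cd33 (0.0866) and Plin2 (0.0703). It also lost Sirpb1a (0.0645) and Siglece (0.0516) in low versus medium, and Atp6v0d2 (0.125) and Cd36 (0.172) in medium versus high. Leaving out 1 array at a time gave 0 to 3 of the 10 in low versus high, with 596 to 1243 of all genes. For low versus medium it gave 0 to 1 of the 10 and 119 to 522 of all genes, and for medium versus high 0 of the 10 and 2 to 72 of all genes. The filter on dim genes called 1 of the 10 in low versus medium, Cd300lf. No difference of the 10 genes that had passed the test changed sign. The share of calls that were higher was 59.1% in low versus high (53.4% after repeated quantile normalization) and 71.9% in low versus medium (59.9%). Each of the 10 genes had 1 probe set that named it alone, so no other such probe set could be tried. The 2 probe sets that named Cd300lf together with other genes were not tried.

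The labels do not say that replicate numbers pair the samples. Same-numbered samples of different gates had deviations correlated at -0.02 to 0.31. Those of replicate 3 were at 0.11, 0.31 and 0.16, those of replicate 1 at 0.02, 0.03 and 0.13, and those of replicate 2 at -0.01, -0.02 and 0.10. Differently numbered samples were at -0.18 to 0.15. Whether the numbers pair the samples is therefore not known, and the unblocked fit was kept. With the replicate number as a block, 3 of the 10 genes were called in low versus high (Trem1, Treml4 and Cd300lf, adjusted p of 0.00318, 0.00202 and 0.0413) and 1 in low versus medium (Treml4, 0.026), with 1564, 629 and 61 of all genes in low versus high, low versus medium and medium versus high.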
